A study of Mus musculus with 223 samples.

Results

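Nuclear long noncoding RNAs were followed in single Htr3a-GFP+ interneurons (INs) of the mouse cortex, through 9 transcripts of the 43629 genes counted: Malat1, Neat1, Meg3, Rian, Mirg, Miat, Kcnq1ot1, Snhg11 and Gm26917. These 9 were chosen by their measured values in these same cells, namely their pooled levels in each group and their relation to the share of mapped read pairs that fell on genes. Those values are therefore given as a description, with no test. The libraries came from whole cortex of Htr3a-GFP mice, in which enhanced GFP is driven by Htr3a regulatory sequences, on a C57BL/6 background and with both sexes included. Brains of several embryos or pups were pooled at each age, GFP-positive cells were sorted and captured one by one, and polyadenylated RNA was copied and sequenced as read pairs. The cells comprised 82 cells at embryonic day 18 (E18), not divided into types, 66 cells at postnatal day 2 (P2) and 75 cells at P5. The authors' types 1, 2 and 3 held 22, 31 and 13 cells at P2 and 34, 19 and 22 cells at P5. No allele or agent distinguished the groups. The authors clustered the cells of each age on genes expressed in them, these RNAs not excepted, so a type against the others is a description too. More than one capture chip was run at E18 and at P5 and a single one at P2, but the labels tie no cell to an animal, a pool or a chip. Cells of an age are therefore not replicates, each age is treated as 1 sample, and no p-value is given.

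Most RNAs of this kind stay in the nucleus, where they act as RNA and are not translated. Malat1 gathers in nuclear speckles, Neat1 is the scaffold of paraspeckles, and Kcnq1ot1 coats and silences its imprinted neighbourhood on the paternal chromosome. Meg3, Rian and Mirg, transcribed in tandem from the maternal copy of the Dlk1-Dio3 domain, carry many small nucleolar RNAs and microRNAs.

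All 9 lie on the mouse build GRCm38, and the GENCODE M21 annotation gives their positions. Malat1 (ENSMUSG00000092341) occupies chr19:5795690-5802672 and Neat1 (ENSMUSG00000092274) chr19:5824708-5845478, both as 1 exon on the minus strand. Meg3 (ENSMUSG00000021268, chr12:109541001-109571726), Rian (ENSMUSG00000097451, chr12:109603940-109661716) and Mirg (ENSMUSG00000097391, chr12:109729764-109749460) follow each other on the plus strand. Miat (ENSMUSG00000097767) lies at chr5:112213228-112229395 on the minus strand, and Kcnq1ot1 (ENSMUSG00000101609, chr7:143203458-143296549, minus strand) is a single exon of 93092 bases inside Kcnq1 and antisense to it. Snhg11 (ENSMUSG00000044349, chr2:158375638-158386145, plus strand) is typed as protein coding in this annotation, although it is named as a host gene of small nucleolar RNAs. Gm26917 (ENSMUSG00000097971, chr17:39843013-39846341, plus strand) is typed as a long intergenic noncoding RNA, and an annotated ribosomal RNA gene begins 12 bases beyond its end. The authors counted with the older Ensembl v78 models, whose exons may differ from these.

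Stretches of A are shown first, because libraries of this kind are primed on runs of A and 4 members hold a run of at least 10 A inside the transcript. Those of Malat1 and Kcnq1ot1, the members found above 10 RPM in every cell, are printed. The mature end of Malat1 is formed by cleavage and not by the usual addition of a poly(A) tail. In its transcript of 6983 bases the longest run, 12 A, lies 298 bases before the annotated end at chr19:5795988-5795999 (minus strand), and belongs to the A-rich tract that is known to close into a triple helix and protect the mature end. The Kcnq1ot1 transcript holds 10 runs of at least 10 A, and its longest, 41 A, lies 23487 bases before the end at chr7:143226945-143226985 (minus strand). Capitals mark the run in both, read 5′ to 3′, and the printed windows are chr19:5795918-5796059 and chr7:143226885-143227045.
Malat1: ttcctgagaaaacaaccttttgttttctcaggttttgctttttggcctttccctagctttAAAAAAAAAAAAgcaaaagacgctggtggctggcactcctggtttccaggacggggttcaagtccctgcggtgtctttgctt
Kcnq1ot1: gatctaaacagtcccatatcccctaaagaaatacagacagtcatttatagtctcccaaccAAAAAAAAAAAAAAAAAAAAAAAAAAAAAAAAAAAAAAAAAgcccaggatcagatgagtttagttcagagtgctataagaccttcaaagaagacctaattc
The longest transcript of Meg3 had 6 runs of 10 or more A, the longest of 16 A and 14113 bases before the end, and that of Rian had 1, of 15 A and 2766 bases before the end, whereas Neat1, Mirg, Miat, Snhg11 and Gm26917 had none. Where the read pairs began within these transcripts cannot be read from counts per gene, so the part of such runs in the levels was not tested.

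The promoters of Meg3, Kcnq1ot1 and Snhg11, whose levels carry the differences between ages and types below, are shown beside that of Malat1, whose level varied least. Windows run from 250 bases before to 50 bases after the start site (RefSeq, GRCm38.p6), and 7 of the 9 members had one. Capitals mark 3 motifs searched on both strands: TGACGTCA, the cAMP response element, TATAAA, and CCAAT. They occurred in 1.79%, 13.6% and 37.4% of the 32851 promoter windows of that length.
Meg3, chr12:109540746-109541045, plus strand: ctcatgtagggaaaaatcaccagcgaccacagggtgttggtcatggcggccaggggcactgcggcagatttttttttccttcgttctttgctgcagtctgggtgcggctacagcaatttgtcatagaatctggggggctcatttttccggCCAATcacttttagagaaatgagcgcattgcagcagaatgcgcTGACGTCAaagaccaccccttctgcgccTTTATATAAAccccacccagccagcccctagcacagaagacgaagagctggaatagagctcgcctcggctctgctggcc
Kcnq1ot1, chr7:143296498-143296797, minus strand: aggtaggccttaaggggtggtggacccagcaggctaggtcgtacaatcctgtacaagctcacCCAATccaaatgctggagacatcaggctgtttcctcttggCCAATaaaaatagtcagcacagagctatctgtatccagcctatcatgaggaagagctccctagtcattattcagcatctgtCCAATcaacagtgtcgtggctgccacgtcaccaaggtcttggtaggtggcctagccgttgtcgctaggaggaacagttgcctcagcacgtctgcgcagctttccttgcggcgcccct
Snhg11, chr2:158375463-158375762, plus strand: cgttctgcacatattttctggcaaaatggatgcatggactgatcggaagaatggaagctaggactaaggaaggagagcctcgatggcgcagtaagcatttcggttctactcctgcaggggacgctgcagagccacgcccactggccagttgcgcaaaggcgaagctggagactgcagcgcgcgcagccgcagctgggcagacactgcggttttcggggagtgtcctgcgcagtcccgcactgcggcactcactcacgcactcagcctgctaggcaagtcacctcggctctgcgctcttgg
Malat1, chr19:5802623-5802922, minus strand: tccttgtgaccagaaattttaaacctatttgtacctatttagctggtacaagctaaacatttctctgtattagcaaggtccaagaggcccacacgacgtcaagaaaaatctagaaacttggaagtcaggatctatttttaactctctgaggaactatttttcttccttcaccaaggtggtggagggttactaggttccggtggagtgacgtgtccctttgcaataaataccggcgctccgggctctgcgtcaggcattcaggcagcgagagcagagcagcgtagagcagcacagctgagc
The upstream Meg3 window held all 3 motifs, with TGACGTCA beginning at position -57 from the start site and 2 overlapping TATAAA matches, 1 on each strand, downstream of it. Kcnq1ot1 held 3 copies of CCAAT, and neither Snhg11 nor Malat1 held any of these letters. A match is a description of the sequence and not evidence of binding.

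Depth was high for single cells, from 3707601 to 15840130 mapped read pairs per cell with a median of 9463033. It was lowest in type 3 INs. The median cell of types 1, 2 and 3 had 9794347, 9750219 and 6483871 mapped pairs at P2, and 9808331, 9114966 and 7879973 at P5. On genes it had 2802948 pairs in P2 type 3 and 2620272 in P5 type 3, against 4974305 to 5614669 in the other groups. RPM is the read pair count of a gene scaled to all mapped pairs of the cell, whether or not they fell on a gene. The share on genes differed by group. Pooled over cells, 59.2% of mapped read pairs fell on genes at E18, 49.7%, 53.8% and 45.1% in types 1, 2 and 3 at P2, and 55.5%, 60.8% and 34.1% at P5. The library labels form 4 sets, A to D. All P2 cells were set A and no other cells were, so age and set cannot be told apart there, and 17 of the 22 P5 type 3 cells were set D. P5 tissue was also dissociated in another medium and at another temperature than E18 and P2 tissue. At least 3 of 6 interneuron markers (Dlx1, Dlx2, Dlx5, Dlx6, Gad1, Gad2) exceeded 10 RPM in 61 of 82 cells at E18, in 14 of 22, 14 of 31 and 7 of 13 at P2, and in 32 of 34, 17 of 19 and 17 of 22 at P5. At least 1 of them exceeded it in all but 8 cells.

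Per kilobase of annotated exon, and pooled over all cells, Malat1 stood highest with 345.5 RPM per kilobase. Meg3 followed with 102.5, Gm26917 with 49.2, Snhg11 with 24.4 and Rian with 16.2. Miat at 4.33 and Kcnq1ot1 at 4.15 were close to each other, and Neat1 at 0.898 and Mirg at 0.768 were lowest. The 9 RNAs together took 0.642% of read pairs on genes at E18, 2.72% in P5 type 3 INs, and between 0.989% and 1.85% in the other groups.

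**Figure D1:**
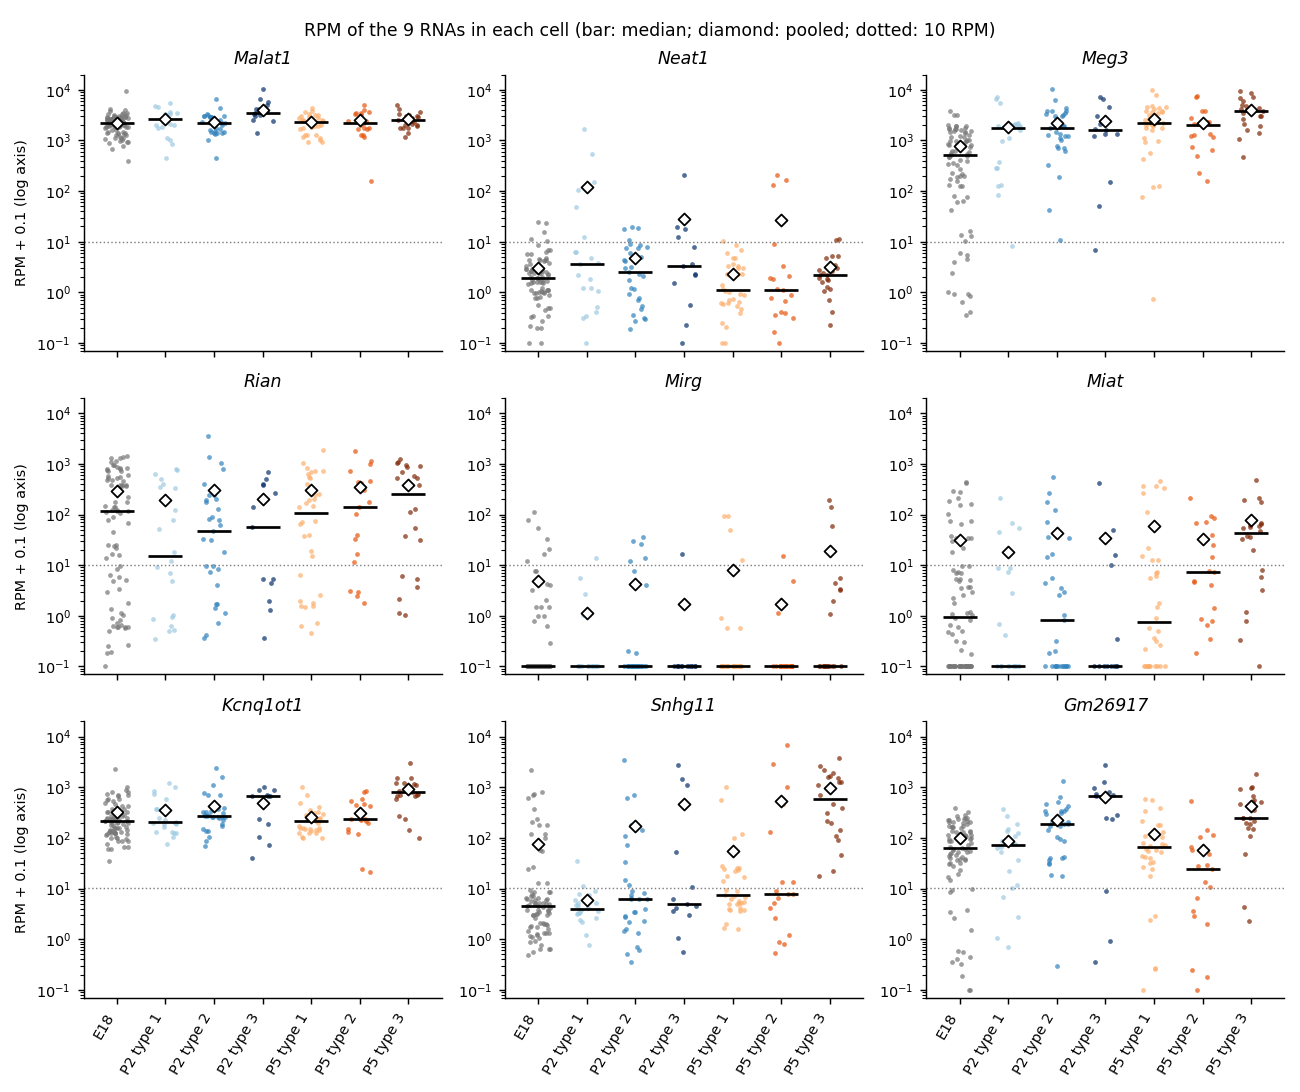
RPM of each of the 9 RNAs in every cell, as RPM + 0.1 on a log axis, by age and type. Bars are the median cell, diamonds the pooled RPM and the dotted line 10 RPM. Malat1 and Kcnq1ot1 exceeded 10 RPM in every cell, Snhg11 does so in all 22 P5 type 3 INs, and the pooled Neat1 level lies far above the median cell in 3 groups.

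Malat1 was the steadiest of the 9. It was above 10 RPM in every cell, and its pooled level spanned only 1.79-fold between the lowest group, E18 at 2210 RPM, and the highest, P2 type 3 at 3968 RPM. At E18 the lowest, median and highest cells had 389, 2220 and 9543 RPM. In types 1, 2 and 3 the median cell had 2665, 2203 and 3421 RPM at P2, and 2363, 2251 and 2483 RPM at P5. The groups overlapped throughout, and the coefficient of variation across cells lay between 35.7% and 53.9%, the lowest range of the 9. None of the 9 comparisons of types or ages reached 2-fold, the nearest being P2 type 3 INs against the other P2 types at a log2 fold of 0.69. There 12 of 13 cells exceeded the median of the others. The lowest Malat1 value, 156.1 RPM, came from the 1 cell, of P5 type 2, in which 95.4% of mapped read pairs were on genes. That cell also had the lowest Kcnq1ot1 of all, 20.8 RPM, and no Neat1 read pair.

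Neat1 was scarce in nearly every IN and abundant in a few. Only 26 cells exceeded 10 RPM, and 7 had no read pair. The median cell lay between 1.01 RPM in P5 type 2 and 3.58 RPM in P2 type 1 INs. Pooled levels were nevertheless 121.8 RPM in P2 type 1, 27.9 RPM in P2 type 3 and between 26.3 and 27.8 RPM (exact 95% Poisson interval) in P5 type 2 INs, against 2.16 to 4.60 RPM in the other groups. A few cells held most of the pairs in these 3 groups. In P2 type 1 INs the 3 highest cells had 1709, 544 and 148.5 RPM, and the first of them held 59.2% of the group's Neat1 read pairs. Without those 3 cells the pooled level was 16.4 RPM, and with them 7 of the 22 cells exceeded 10 RPM. In P2 type 3 INs 1 cell at 204.3 RPM held 80.9% of the pairs, and in P5 type 2 INs a cell at 203.4 RPM, another at 134.7 RPM and one between them carried nearly all of it, since 1.37 RPM remained without them. The alternative without the 3 highest cells was chosen after seeing the data. Markers of astrocytes or radial glia moved with part of this. The highest P5 type 2 cell had 8 of 10 such markers above 10 RPM. The summed level of the list ranged from 0.757 to 18307 RPM in that group, with a median of 166.6 RPM and 1 of the 10 genes at 0, against medians of 2.93 to 17.1 RPM elsewhere. Leaving out the 4 cells with at least 3 of those markers lowered Neat1 there to 10.6 RPM. The highest P2 type 1 and P2 type 3 cells had 0 of the 10, and of 9 microglia markers the former had 1 above 10 RPM and the latter 0. The part of such cells in the Neat1 levels was not tested further.

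The log2 fold of pooled Neat1 was 3.53 for P2 type 1 and 3.02 for P5 type 2 INs against the other types of their ages, and 3.72 for P2 against E18. As a difference of mean log2(RPM + 1) over cells, which a single cell moves little, the same comparisons gave 1.10, 0.50 and 0.86. For P5 type 3 INs the pooled log2 fold of -1.55 turned to 0.14, and 18 of 22 type 3 cells exceeded the median of the other P5 cells. Without the 6 P5 cells that had at least 3 markers of astrocytes or radial glia, the pooled log2 fold of Neat1 was -0.45 in P5 type 3 and 1.78 in P5 type 2 INs.

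Miat, a transcript of the retina and brain that forms its own nuclear bodies, was detected patchily. It was at 0 in 74 cells and above 10 RPM in 70. At E18 its lowest, median and highest cells had 0, 0.867 and 434 RPM. In P5 types 1, 2 and 3 the median cell had 0.641, 7.39 and 42.9 RPM, and the share of cells above 10 RPM was 29.4%, 42.1% and 68.2%, with exact 95% binomial intervals of 15.1% to 47.5%, 20.3% to 66.5% and 45.1% to 86.1%. Among the other P5 cells 11 of 53 exceeded the type 3 median. Pooled Miat in P5 type 3 INs was 78.6 RPM, a log2 fold of 0.65 over the other types, short of 2-fold. At P2 the median cell of types 1 and 3 had no Miat read pair, and 1 cell held 84.9% of the Miat pairs of type 3.

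The 3 transcripts of the Dlk1-Dio3 domain differed from one another although they lie in tandem. Meg3, the first of them and a presumed growth suppressor, was higher at both postnatal ages than at E18. The lowest, median and highest E18 cells had 0.255, 512 and 3872 RPM. At P2 the median cell of types 1, 2 and 3 had 1743, 1774 and 1582 RPM, and at P5 2187, 2046 and 3871 RPM. E18 included 12 cells at or below 10 RPM, whereas 64 of 66 P2 cells and 74 of 75 P5 cells were above it. Pooled Meg3 was 765 RPM at E18 (exact 95% Poisson interval 763.5 to 767.4 RPM), 2128 RPM at P2 and 2834 RPM at P5, and the log2 folds over E18 were 1.47 and 1.89. Of the P5 cells 66 of 75 exceeded the E18 median and 22 exceeded the highest E18 cell, while 3 of 82 E18 cells exceeded the P5 median. Within library sets B, C and D, each of which held both ages, the log2 fold of P5 over E18 was 1.73, 2.91 and 2.05. Markers of other cell types moved with age too. At E18 12 of 82 cells had at least 3 of 8 markers of excitatory neurons above 10 RPM, and in the other groups 0 did. The summed level of that list ran up to 2323 RPM at E18, with none of the 8 genes at 0, up to 987 RPM at P2 and up to 156.8 RPM at P5. Of the 5 of these markers that passed the filter at P2, 4 were at least 2-fold lower than at E18, where 21.8% of 9293 genes were, and Slc17a6, a glutamate transporter, was higher with a log2 fold of 1.02. The 5 of these markers that passed the filter were all at least 2-fold lower at P5, where 19.6% of 9808 genes were, and the 3 that passed of the 10 astrocyte or radial glia markers were all at least 2-fold higher, where 11.9% were. Of the 8 excitatory markers 0 passed the filter among P2 cells alone or P5 cells alone, so they entered through E18. Their lower postnatal levels were thus largely fixed by the filter. Leaving out those 12 cells and the 6 P5 cells with at least 3 astrocyte or radial glia markers, an alternative chosen after seeing the data, gave log2 folds over E18 of 1.39 at P2 and 1.85 at P5 for Meg3. For Snhg11 they were 0.82 and 2.24, below 2-fold at P2, and for Neat1 3.77 and 0.46, below 2-fold at P5. The Poisson intervals cover counting error only, since read pairs from PCR are not independent molecules, and the binomial intervals cover only the number of cells, taken as separate draws although they came from pooled brains.

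Rian, the host of the domain's main cluster of small nucleolar RNAs, behaved otherwise. Its median cell had 115.2 RPM at E18, 15.0, 46.4 and 56.9 RPM in P2 types 1, 2 and 3, and 107.8, 143.4 and 252 RPM at P5. Pooled levels lay between 190 and 390 RPM and no comparison reached 2-fold. The lowest cell of each group had at most 1.69 RPM and the highest at least 684 RPM. In P2 type 2 INs 1 cell at 3491 RPM held 45.7% of the Rian pairs, and without it the pooled level there was 0.566 times as high.

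Mirg, the microRNA-rich end of the domain, had a read pair in 54 cells and exceeded 10 RPM in 22. The median cell had no Mirg read pair in any of the 7 groups. The highest cells had 110.5 RPM at E18, 13.7, 36.2 and 16.5 RPM in the P2 types, and 95.3, 15.4 and 194.9 RPM in the P5 types. Its pooled level of 19.3 RPM in P5 type 3 INs, a log2 fold of 1.58 over the other P5 types, therefore rested on 3 cells above 10 RPM. Within library sets B, C and D, with 2, 3 and 17 type 3 cells, the log2 fold was -1.68, 5.82 and 0.62. Without the highest cell the type 3 level was 11.3 RPM.

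Of the protein-coding genes of the Dlk1-Dio3 domain and its flank, Dlk1, Rtl1, Dio3, Begain and Ppp2r5c, 3 passed the filter at P5 and E18, Rtl1 and Begain of them on low values. The paternally expressed Rtl1, a retrotransposon-derived gene, went from 0.227 RPM at E18 to 14.1 RPM at P5, a log2 fold of 3.62. Begain, which encodes a protein of the postsynaptic density, had a log2 fold of 1.24, and Ppp2r5c, a regulatory subunit of protein phosphatase 2A, -0.61, and 11.9% of all genes tested were at least 2-fold higher. Without those marker-bearing cells the fold of Rtl1 was 3.70. Dio3 was at 0 in all these cells. In P5 type 3 INs 2 of the 3 were at least 2-fold lower, Ppp2r5c with -2.96 and Begain with -2.11, where 45.7% of the genes tested were, while Rtl1 had 0.58 (1.33 relative to read pairs on genes) and Meg3 0.65.

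Kcnq1ot1 was above 10 RPM in every cell and was highest in P5 type 3 INs. At E18 the lowest, median and highest cells had 35.02, 215.7 and 2333 RPM, and the median cells of P2 types 1, 2 and 3 had 204.5, 268 and 658 RPM. In P5 type 1 INs the cells ran from 98.9 to 1034 RPM with quartiles of 145.7 and 279 RPM, and in type 2 from 20.8 over 239.5 to 843 RPM. In type 3 they ran from 101.3 over 810 to 2988 RPM. The type 3 cells overlapped the others but lay above most of them, with 20 of 22 above the median of the other types and 9 above the highest of them, while 3 of 53 others exceeded the type 3 median. Pooled levels were 930 RPM in type 3 and 277 RPM in the other P5 cells, a log2 fold of 1.74. In sets B, C and D taken singly it was 1.54, 1.01 and 1.64, with 2, 3 and 17 type 3 cells.

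At P2 the pooled level of Kcnq1ot1 in type 3 INs, 500 RPM, was 1.26-fold that of the other types. Of the protein-coding genes that share the Kcnq1 domain, Kcnq1, Phlda2 and Ascl2 had no read pair in the cells of any age compared. Slc22a18 was at or near 0. Cdkn1c, an inhibitor of the cell cycle that this domain silences on the paternal copy, had 49.9 RPM at E18 and 2.65 RPM at P5, a log2 fold of -3.80. Tssc4 had -2.56 and Nap1l4, a histone chaperone, -1.38 in the same contrast, so 3 of the 4 genes of this list that passed the filter were at least 2-fold lower at P5, where 19.6% of genes tested were. The fourth, Cd81, had 0.71. Cdkn1c and Tssc4 did not pass the filter among P5 cells alone, so they entered through E18. Their lower level at P5 was thus largely fixed by the filter, and nothing is read from the count. Without the marker-bearing cells the fold of Cdkn1c was -3.83. Kcnq1ot1 itself had a log2 fold of 0.44 for P5 against E18, and of -0.52, -0.16 and 0.76 within library sets B, C and D.

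Snhg11, expressed mainly in neurons, was above 10 RPM in every P5 type 3 IN. In P5 type 3 INs the lowest, median and highest cells had 17.6, 594 and 3845 RPM. The median cells of P5 types 1 and 2 had 7.23 and 7.79 RPM, although their highest cells reached 1012 and 6770 RPM. The 22 type 3 cells above 10 RPM compared with 14 of 34 type 1 and 8 of 19 type 2 cells above it, and the exact binomial interval of the type 3 share reached down to 84.6%. All 22 also exceeded the median of the other P5 cells, 7.65 RPM, and 4 of 53 other cells exceeded the type 3 median. Pooled levels were 951 RPM in type 3 and 225 RPM in the others, a log2 fold of 2.08. As a difference of mean log2(RPM + 1) it was 4.68. Taken set by set, B, C and D gave log2 folds of 6.36, 0.08 and 2.42. The type 2 cell at 6770 RPM, which held 54.7% of the Snhg11 pairs of its type, was of set C.

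At E18 and P2 Snhg11 was low in most cells and high in a minority. The median cell had 4.44 RPM at E18 and 3.90, 6.12 and 4.84 RPM in the P2 types, while the highest cells had 2181, 34.4, 3494 and 2748 RPM. Above 10 RPM were 19 of 82 cells at E18 and 2 of 22, 10 of 31 and 5 of 13 cells of the P2 types. P2 type 1 INs thus lacked high cells, and their pooled level of 5.77 RPM had a log2 fold of -5.13 against the other P2 types. P5 exceeded E18 by a log2 fold of 2.41, and within library sets B, C and D, with 15, 17 and 43 P5 cells, the log2 fold was -0.02, 5.58 and 2.68. Not all types shared this difference. Pooled Snhg11 was 75.05 RPM at E18, and 54.4, 545 and 951 RPM in P5 types 1, 2 and 3.

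**Figure D2:**
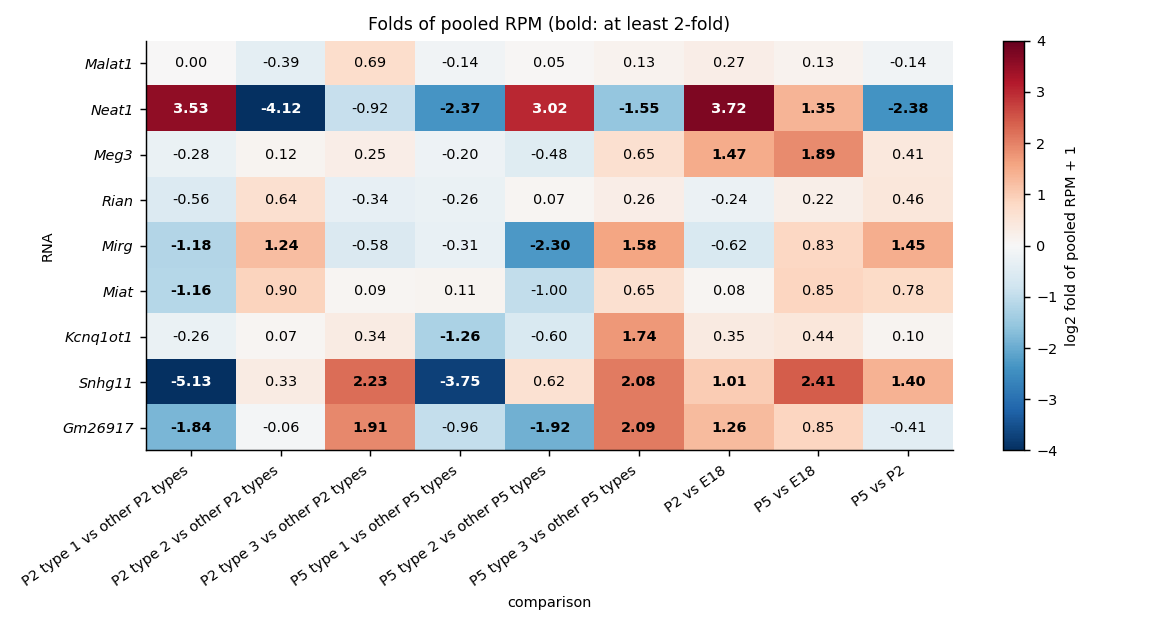
Log2 fold of pooled RPM + 1 for each of the 9 RNAs, first group over second, in 9 comparisons of types within an age and of ages. Bold values are at least 2-fold, 30 of 81 in all. Malat1 has no bold value, and the P5 type 3 column holds 4 positive ones.

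Gm26917 was highest in type 3 INs at both ages. The lowest, median and highest cells had 0.248, 666 and 2692 RPM in P2 type 3 and 2.18, 253 and 1816 RPM in P5 type 3 INs. The median cells of types 1 and 2 had 70.9 and 185.2 RPM at P2 and 65.6 and 23.9 RPM at P5, and that of E18 had 64.4 RPM. The groups overlapped, with 10 of 13 P2 type 3 cells above the median of the other P2 types and 19 of 22 P5 type 3 cells above that of the other P5 types. The log2 fold of the pooled level was 1.91 at P2 and 2.09 at P5, and at P5 the sets B, C and D taken singly gave 3.11, 2.51 and 2.53. The name says nothing of a function, and its place beside ribosomal RNA calls for a look at its neighbour. Gm42418 begins 617 bases beyond the end of Gm26917 on the same strand and inside the span of the annotated ribosomal RNA gene, which lies on the other strand. It went the opposite way. Its median cell had 1086 RPM at E18, 837, 764 and 31.9 RPM in P2 types 1, 2 and 3, and 1126, 937 and 102.8 RPM in the P5 types. Over all cells Spearman's rho between the pair was -0.28, and -0.04 once both were centred within the 7 groups. With the share of mapped read pairs on genes, which was lowest in type 3 at both ages, rho was 0.65 for Gm42418 and -0.40 for Gm26917. Whether read pairs of ribosomal origin entered the Gm26917 count was not tested.

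**Figure D3:**
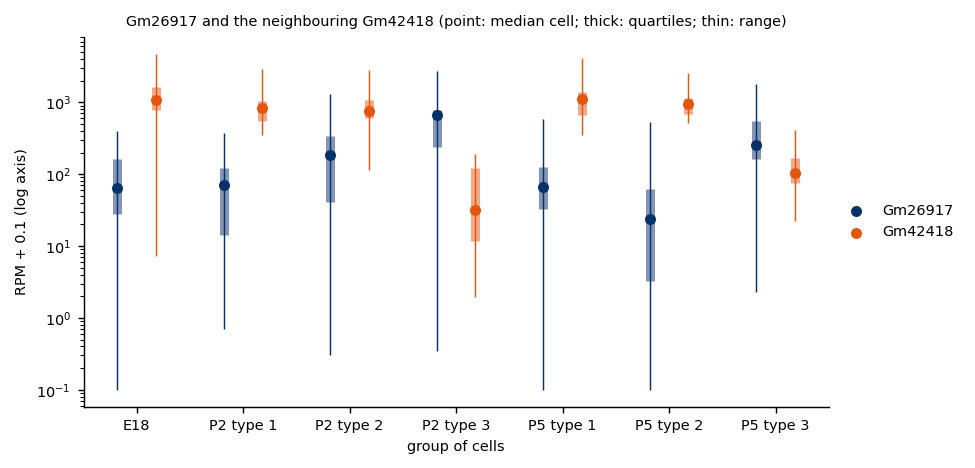
Gm26917 and its neighbour Gm42418 by group, as RPM + 0.1 on a log axis. Points are the median cell, thick bars the quartiles and thin bars the range over cells. In P2 and P5 type 3 INs the order of the 2 genes is turned around, with median Gm26917 at 666 and 253 RPM and median Gm42418 at 31.9 and 102.8 RPM.

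Counted over the 9 members, P5 type 3 INs had 4 at least 2-fold higher than in the other P5 types, namely Mirg, Kcnq1ot1, Snhg11 and Gm26917, where 14.7% of the 9675 genes tested were at least 2-fold higher. Neat1 alone was at least 2-fold lower, where 45.7% of genes were. The median log2 fold was 0.65 over the members and -0.78 over all genes tested. In P2 type 3 INs Snhg11 and Gm26917 were at least 2-fold higher, against 16.0% of 8400 genes, and the medians were 0.25 and -1.26. Mirg, Miat, Snhg11 and Gm26917 were at least 2-fold lower in P2 type 1 INs, against 31.9% of genes, and Neat1 higher, against 19.4%. The Mirg and Miat calls there stood on low values. Pooled Mirg was 1.06 against 3.66 RPM, and the median cell had 0 against 0.157 RPM of Miat. In P2 type 2 INs Mirg was higher, against 28.1%, and Neat1 lower, against 19.9%. Neat1, Kcnq1ot1 and Snhg11 were at least 2-fold lower in P5 type 1, against 23.7%, and Mirg and Gm26917 in P5 type 2, against 21.8%. Neat1 was higher in P5 type 2, against 23.5%. The median cell of P5 types 1 and 2 had 1.01 RPM of Neat1 in each. Both Neat1 calls thus rested on the few high type 2 cells. Against E18, P2 had 4 members at least 2-fold higher, Neat1, Meg3, Snhg11 and Gm26917, where 11.5% of genes were, and P5 had Neat1, Meg3 and Snhg11, where 11.9% were. Relative to read pairs on genes, P5 had 6 members at least 2-fold higher than E18, where 15.9% of genes were, as Mirg with 1.06, Miat with 1.06 and Gm26917 with 1.05 joined those 3. Per mapped pair, Mirg had log2 folds of -0.04, 2.06 and 1.81 within sets B, C and D. Miat had 1.39, -0.17 and 1.45 there, and Gm26917 1.52, 1.145 and 0.10. The P2 and P5 comparisons share the E18 cells. Pooled Meg3 was above E18 in each P2 and P5 type, but not every call held so. Snhg11 had 5.77 RPM in P2 type 1 and 54.4 RPM in P5 type 1 against 75.05 RPM at E18. Gm26917 had 88.2 RPM in P2 type 1 against 97.6 RPM at E18, and Neat1 2.16 RPM in P5 type 1 against 2.89 RPM. At P5 against P2, Mirg with a log2 fold of 1.44 and Snhg11 with 1.40 were at least 2-fold higher, where 17.9% of 8989 genes were, and Neat1 with -2.38 was lower, where 15.1% were. All 9 members passed the filter in each comparison, which kept a gene if over 5% of the compared cells had more than 10 RPM of it. Since the members were chosen for these values, nothing is read from their counts against the background.

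The scale moved the folds most in P5 type 3 INs, where fewer read pairs fell on genes. Relative to read pairs on genes, the log2 fold over the other P5 types was 2.83 for Snhg11, 2.85 for Gm26917, 2.49 for Kcnq1ot1 and 2.38 for Mirg. Meg3 and Miat, short of 2-fold per mapped pair, then had 1.40 each and Rian 1.01, and Malat1 moved from 0.13 to 0.88. On that scale 7 members were at least 2-fold higher in P5 type 3 INs, where 28.1% of the 9675 genes were, and Neat1 was lower at -1.01, where 3290 of them (34%) were.

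**Figure D4:**
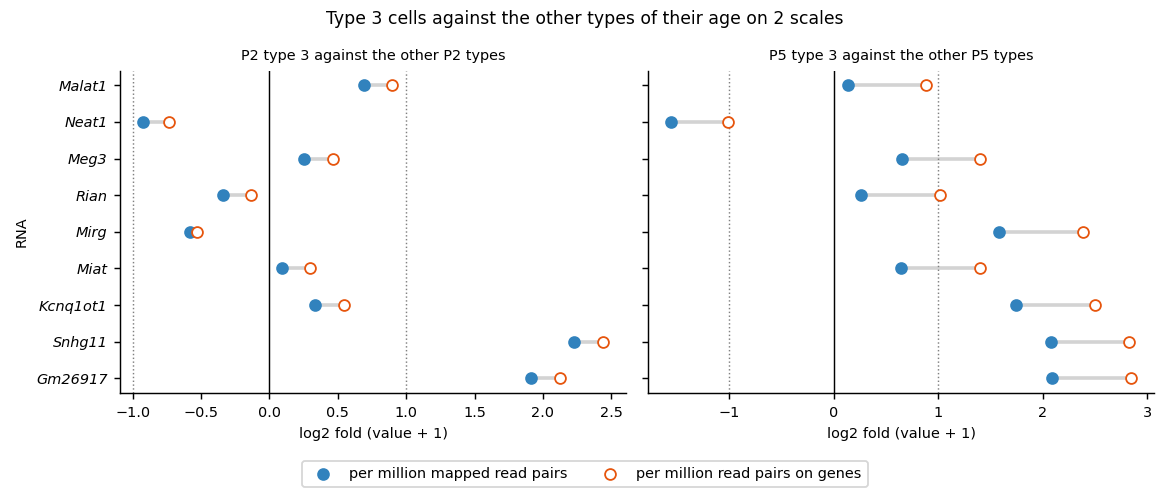
Log2 fold of type 3 INs over the other types at P2 and at P5 for each RNA, on the scale of mapped read pairs (filled) and of read pairs on genes (open), with 1 added to both sides. Dotted lines mark 2-fold. At P5 every open point lies to the right of its filled point, with Malat1 moving from 0.13 to 0.88 and Meg3 from 0.65 to 1.40.

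Cells with a low share of mapped read pairs on genes had higher RPM of several members. Over all cells, which share pools, library sets and depth, Spearman's rho of RPM with that share was -0.49 for Kcnq1ot1, -0.43 for Meg3, -0.40 for Gm26917, -0.35 for Neat1 and -0.30 for Snhg11. These 5 were at or below -0.3, where 2.91% of 9358 genes were, and Kcnq1ot1 stood 11th from the most negative. Rian at -0.11, Miat at -0.09, Malat1 at -0.08 and Mirg at -0.04 showed little relation per mapped pair. Relative to read pairs on genes, a scale that divides by those pairs, rho was -0.21, -0.14, -0.49 and -0.05 for them, and -0.66 for Kcnq1ot1. In the third of cells with the lowest share, 74 cells, pooled Kcnq1ot1 was 577 RPM, against 261 RPM in the third with the highest. Meg3 was 2800 against 1140 RPM and Gm26917 261.5 against 97.95 RPM, whereas Malat1 was 2413 against 2340 RPM. Part of the relation lies between groups, since P5 type 3 INs had both the lowest share and the highest Kcnq1ot1, Meg3 and Snhg11. Centred within the 7 groups, rho was -0.34 for Kcnq1ot1, -0.32 for Neat1, -0.25 for Gm26917, -0.21 for Meg3 and -0.14 for Snhg11. For Kcnq1ot1 it was below 0 in 6 of the 7 groups and for Neat1 in all 7. The share of pairs on genes is not a measure of RNA from the nucleus, and what lowered it was not tested.

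**Figure D5:**
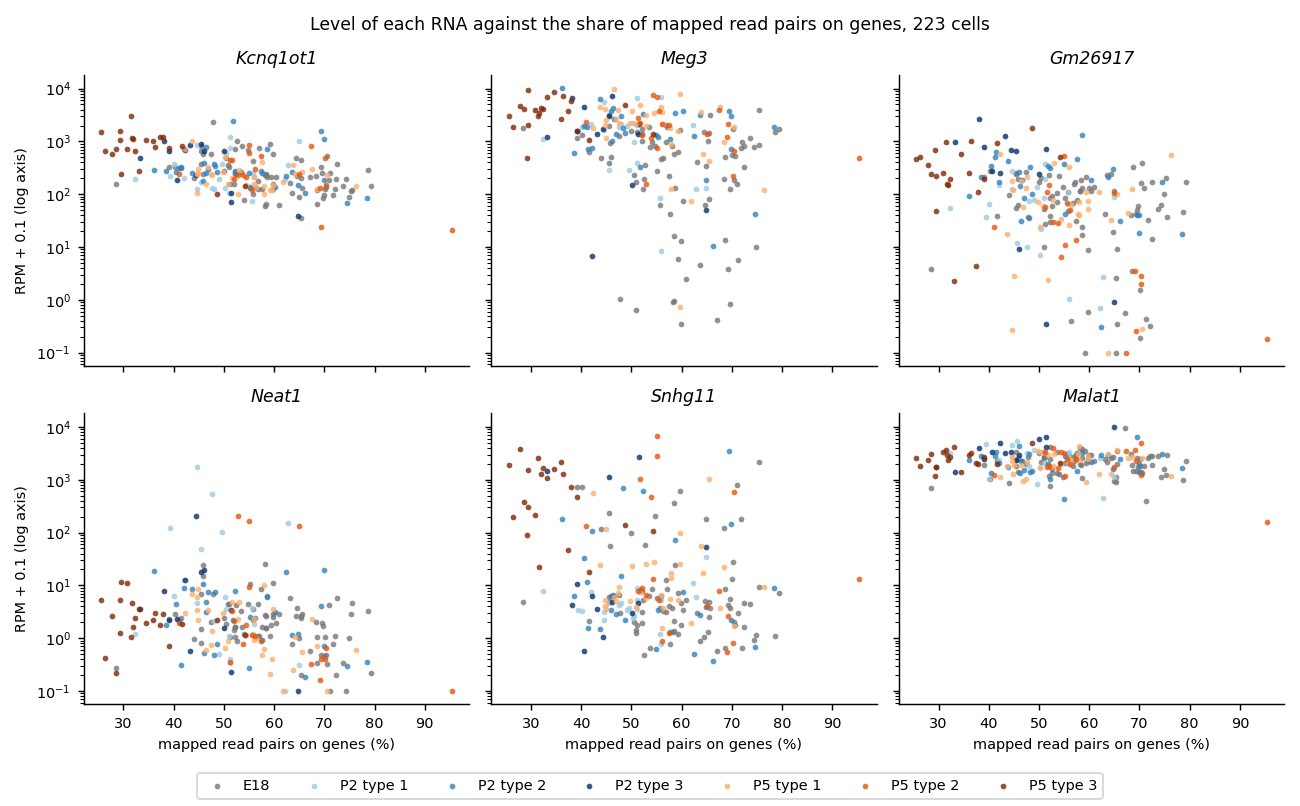
RPM + 0.1 (log axis) against the percent of mapped read pairs on genes for 6 of the RNAs, 1 point per cell, coloured by age and type. Kcnq1ot1, Meg3 and Gm26917 lie lower in cells with more pairs on genes (rho -0.49, -0.43 and -0.40), and Malat1 is level (rho -0.08).

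From cell to cell within groups the members were loosely related at most. Of their 36 pairs, 3 had a centred Spearman's rho of 0.2 or more: Meg3 with Rian at 0.28, Miat with Snhg11 at 0.25 and Miat with Kcnq1ot1 at 0.24. Rian with Mirg had 0.14 and Meg3 with Mirg 0.07, so the 3 tandem transcripts were not read at one ratio in each cell. Malat1 and Neat1, neighbours on chromosome 19, had 0.06. The genes most like each member by the same measure, among the 3011 genes that 25% or more of the cells had above 10 RPM, were no closer than 0.39. Kcnq1ot1 was most like Gm37761 (0.39), AI838599 (0.37) and Gm37086 (0.35), and Neat1 like Rad51ap1 (0.34), Six2 (0.29) and Gm21798 (0.29). Snhg11 was most like Tmem130 (0.29), the sodium channel gene Scn2a (0.29) and Dst (0.29), and Meg3 like Abcc9 (0.27), Dnm3 (0.24) and Kdsr (0.24). Malat1 was most like Sp8 (0.28), Ctcfl (0.24) and Tnrc6c (0.21), Rian like Herc3, Nptn and Gm37899 (0.29, 0.28 and 0.28), and Miat like Rev3l, Ndn and Gm37515 (0.29, 0.26 and 0.25). Mirg was most like Pde10a, Camk2g and Pqbp1 (0.24, 0.22 and 0.22), and Gm26917 like Gm11032, Gm20045 and Psmb7 (each 0.28). Centring within groups does not remove the share of mapped read pairs on genes. Over all cells Six2, Gm11032, Gm21798 and Gm37086 had a rho of -0.72, -0.67, -0.52 and -0.51 with that share. Its part in these likenesses was not tested.

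Several proteins of paraspeckles and nuclear speckles were at least 2-fold lower in P5 type 3 INs per mapped pair, as were 45.7% of all genes. Of 12 paraspeckle proteins, 0 were at least 2-fold higher and 6 at least 2-fold lower, with a median log2 fold of -1.05 beside -0.78 over all genes. The lowest were Hnrnpa1 with -3.16, Hnrnpk with -3.14, Pspc1 with -2.70 and Matr3 with -1.91. Of 16 nuclear speckle proteins 0 were higher and 8 lower, with a median of -0.88, led by the splicing factors Srsf7 with -3.19, Srsf5 with -2.85 and Srsf3 with -1.67. Relative to pairs on genes, where 34% of all genes were lower and 28.1% higher, 4 of the 12 and 2 of the 16 were lower and 0 of either list higher. In P2 type 3 INs 2 of the 12 paraspeckle proteins were at least 2-fold higher and 5 lower, where 16.0% and 53.4% of genes were. Pspc1, among the lowest at P5, had 3.11 at P2. Of the 16 nuclear speckle proteins 2 were higher at P2 and 7 lower, with Srsf6 at 2.68. Other noncoding RNAs were mixed in P5 type 3 INs. Of 8 host genes of small nucleolar RNAs that passed the filter, 0 were higher and 2 lower, Snhg6 with -1.80 and Snhg5 with -1.78, and Gas5 had 0.03. Relative to pairs on genes 2 of the 8 were at least 2-fold higher, Snhg14 with 1.23 and Snhg15 with 1.54, and 2 lower. Of 9 further long noncoding RNAs, Mir124a-1hg, the host of a neuronal microRNA, was higher with 1.02, and 5 were lower, among them Pantr1 with -4.37 and Tug1 with -3.37. Dlx6os1 has 2 rows in the table, with -1.85 and -2.10, and both are counted among the 9 and the 5. On the other scale 2 of the 9 were higher and 5 lower.

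All members but Gm26917 overlap other annotated genes, and what this did to the members' counts was not tested. Of the 55 annotated genes in the table that overlap a member, 28 lie wholly within member exons, and 27 of those 28 had no read pair in any cell, whereas 12 of the 17 that share no exon base with a member had some. The sources used here do not state how pairs over 2 genes, or over opposite strands, were assigned.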

How the data were processed

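Single-cell libraries were made with SMARTer chemistry on a C1 chip and Nextera XT. Per the labels and methods, the authors aligned read pairs with TopHat2 to GRCm38, counted them per Ensembl v78 gene with HTSeq 0.6.1 and deposited raw counts of read pairs for 43629 genes in 223 cells. Molecular identifiers are not mentioned, and the use of strand is not given in the sources used here. Identifiers were matched to GENCODE M21 symbols, which left 0.313% of read pairs on unnamed genes. Each count was multiplied by the coefficient that the authors deposited for the cell, which gives RPM. Pooled RPM is the summed count over summed mapped read pairs of a group, with exact 95% Poisson intervals. Shares of cells above 10 RPM, the level used in the study's methods, have exact 95% binomial intervals. A fold is the log2 ratio between 2 pooled levels after adding 1 RPM to each, and counts as called from 2-fold. The labels name no animal, pool or chip for a cell, so each age was 1 sample and no test was run. Cells were also thinned to 3707601 mapped pairs, which left every share of cells above 10 RPM within its interval. The genes named are all members, the 3 genes most like each by rank correlation and some genes of each list. From the lists, genes with large folds were preferred, but others such as Gas5 and Mir124a-1hg are named too. The Dlk1-Dio3 and Kcnq1 lists are named in full. The members and lists were chosen with earlier results of these data known. Alternatives changed the pseudocount, the library size (total counts on genes, edgeR 4.0.16 TMM factors or DESeq2 1.42.0 size factors of pooled counts), the summary, single cells, thresholds and library sets. Scripts ran in R 4.3.3 and in Python 3.11.15 with scipy 1.17.1, pandas 2.3.3, matplotlib 3.10.9 and numpy 2.4.6. The pooled fold was tested on counts simulated for the P5 type 3 comparison, and rank correlation and centring on made-up values. The simulated spread between cells was smaller than that of several members here. Doublets were not called. Capture sites had been viewed under a microscope by the authors.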

Additional observations from a re-analysis of the deposited data

How the results depend on the processing

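Of the 81 folds between types or ages, 30 were at least 2-fold. The number at P2 (9 of 27) stayed between 6 and 13 under every alternative run, and that between ages (10 of 27) between 7 and 15. At P5 it was 11 of 27, 18 in library set B alone and 17 with 1.5-fold as the threshold, and between 8 and 16 otherwise. Of the 30, 30 kept their direction and 2-fold size with edgeR TMM factors, 29 with DESeq2 size factors, 28 without the highest cell of each side, 21 with 10 RPM added and 16 as a difference of mean log2(RPM + 1). The log2 folds that turned were Neat1 in P5 type 3 INs as that difference (0.14) and, in library set B alone, Mirg in P5 type 2 (0.77), Mirg in P5 type 3 (-1.68) and Snhg11 in P5 against E18 (-0.018). The cause was not tested. Without the cells that had at least 3 markers of excitatory neurons or of astrocytes or radial glia, an alternative chosen after seeing the data, 18 of the 21 folds it could affect kept their direction and 2-fold size. Set B held 2 cells each of P5 types 2 and 3. Between ages the sets allowed only P5 against E18.

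The number of members with rho at or below -0.3 to the share of read pairs on genes was 5 of 9. It was 2 when centred within the groups, 2 when centred within groups and library sets (an alternative chosen after seeing the data), 1 in E18 cells alone, 2 in P2 cells alone and 2 in set B alone, and between 4 and 6 under the other alternatives. The pairs of members with rho of 0.2 or more numbered 3 of 36, 7 without centring and 8 relative to read pairs on genes. Of 63 pooled levels, 9 fell below 0.5 times their value without the highest cell, Neat1 in P2 type 1 among them (51.9 RPM). No paired analysis was possible because cell numbers pair no cells between groups and no test was run. Only shares of cells above 10 RPM were recomputed at equal mapped read pairs, which leaves the pairs on genes unequal, and RPM of Snhg11 and Gm26917 had a rho of -0.24 and -0.25 with mapped read pairs. With 1 sample per age none of the differences has a replicate check.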
